A study of Mus musculus with 2 samples.

Results

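The 6 counted microRNA genes that lie inside the mouse Hox clusters, Mir10a, Mir10b, Mir196a-1, Mir196a-2, Mir196b and Mir615, were examined in skeletal muscle of newborn mice. They were taken by gene symbol from the 1973 microRNA genes counted in each library, whatever their level. The samples were pieces of skeletal muscle from B6NCrl pups at postnatal day 0, with small RNA under 30 bases sequenced as 2 libraries that form 1 group. No treatment or genotype was compared, sex was not collected, and the labels name neither the muscle nor its place in the body. Each sample is labelled as part of an organ from 1 pup, but both carry the same donor record, so the spread between them may not be that between animals.

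Hox genes encode homeodomain transcription factors that give cells a position along the body axis. They lie in 4 clusters, in which genes with low numbers are used toward the head and genes with high numbers toward the tail, all read from the same strand. MicroRNAs embedded in the clusters are made from the same regions and pair with messenger RNAs, several Hox messengers among them, to lower their output. The part of a microRNA that does most of this pairing is its seed, bases 2 to 8 from the 5′ end.

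The mature sequences (RefSeq, GRCm38.p6) are shown because they fix which of the 6 genes can be told apart by their reads. Seeds are in capitals.

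miR-10a-5p: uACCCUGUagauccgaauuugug
miR-10b-5p: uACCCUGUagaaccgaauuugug
miR-196a-5p: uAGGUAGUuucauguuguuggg
miR-196b-5p: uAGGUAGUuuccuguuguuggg
miR-615-5p: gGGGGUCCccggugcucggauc
miR-615-3p: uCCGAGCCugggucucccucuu

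The pair of miR-10 arms shared its seed and differed at 1 of 23 bases, U12A from miR-10a-5p to miR-10b-5p, counted from 1 at the 5′ end. The miR-196 arms likewise shared a seed and differed at 1 of 22 bases, A12C from miR-196a-5p to miR-196b-5p. Both substitutions fall at position 12, outside the seed. No other mature sequence in the table carried either seed, and each seed of miR-615 was found in that arm alone. The tables count reads per gene, so the arms of a gene were not separated.

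Replicate 1 held 16398945 reads, of which 7955914 were counted on the annotated strand of a microRNA gene, and replicate 2 held 21037937, of which 10816295 were. Levels are CPM, a gene's count relative to the sum of those annotated-strand microRNA counts, and 3 counts corresponded to 0.377 CPM in replicate 1 and 0.277 CPM in replicate 2. Of the muscle microRNAs fixed as markers, 7 were in the tables, with summed levels of 109278 and 122731 CPM in replicates 1 and 2, of which Mir206 held 107144 and 120690 CPM. Reads that fit several places are in no gene's count, so sums of lists with near-identical copies, such as the Mir1a and Mir133a genes of muscle, are lower limits. The neural list had 839 and 851 CPM, all from Mir128-1 and Mir128-2 among the genes detected. The 3 Mir124a genes had 0 counts in both libraries, but they share 20-base stretches with each other, so these zeros do not bound their level. Other lists were present as well, with 2205 and 1968 CPM for cartilage, 6717 and 5017 CPM for fibroblasts and mesenchyme, and 531 and 334 CPM for epithelium and skin. Vessel markers were high, with 44986 and 47428 CPM for the endothelial Mir126a and 31531 and 28507 CPM for smooth muscle. Leukocyte genes had 574 and 448 CPM and the cardiac Mir208a 15.5 and 12.1 CPM. The part of these cells in the levels below was not tested, and in such bulk samples fewer cells of a type and less RNA per cell cannot be told apart.

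All 6 Hox-cluster genes reached 10 counts in each library, as did 18.5% of the 1973 genes. Together they held 197220 counts, or 2.48%, in replicate 1 and 244579 counts, or 2.26%, in replicate 2, a mean of 2.37% ± 0.154 (SD, n = 2). Exact 95% binomial intervals ran from 2.47% to 2.49% and from 2.25% to 2.27%, which cover counting error only. The libraries therefore differed by more than counting error in this share.

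Mir196b, the miR-196 gene of the HoxA cluster, was the most abundant of the 6, with 12160 CPM in replicate 1 and 9938 CPM in replicate 2. Its mean of 11049 CPM ± 1571 (SD, n = 2) ranked 21 among all genes, the rank it held in each library. Mir10b of the HoxD cluster followed with 8614 and 8983 CPM, a mean of 8799 ± 261 and rank 24. These genes made up most of the Hox-cluster counts, Mir196b with 46.5% ± 3.61 and Mir10b with 37.2% ± 3.52.

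Mir10a, the HoxB counterpart of Mir10b, had 1941 and 1841 CPM in replicates 1 and 2, a mean of 1891 ± 71.0 (SD, n = 2). Mir196a-2 of the HoxC cluster had 1438 and 1137 CPM, a mean of 1287 ± 213. Mir615, which lies in the same cluster and belongs to neither family, had 619 and 700.3 CPM, a mean of 659.7 ± 57.5. These genes ranked 64, 76 and 108. Mir196a-1 of the HoxB cluster stood far below them, with 137 counts (17.2 CPM) in replicate 1 and 138 counts (12.8 CPM) in replicate 2. Its mean was 15.0 CPM ± 3.15 and its rank 248.

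The order of the 6 genes was the same in both libraries, and the ranges of neighbours in it did not overlap. By mean ratio the narrowest gap stood between Mir196b and Mir10b, whose ratio was 1.41 in replicate 1 and 1.11 in replicate 2. The ratio was 1.35 and 1.62 between Mir10a and Mir196a-2, which was the narrowest gap in replicate 1. With 2 libraries of 1 group no test of this order was made. How readily each sequence enters a small RNA library was not measured, so differences between genes are differences in counts.

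**Figure D1:**
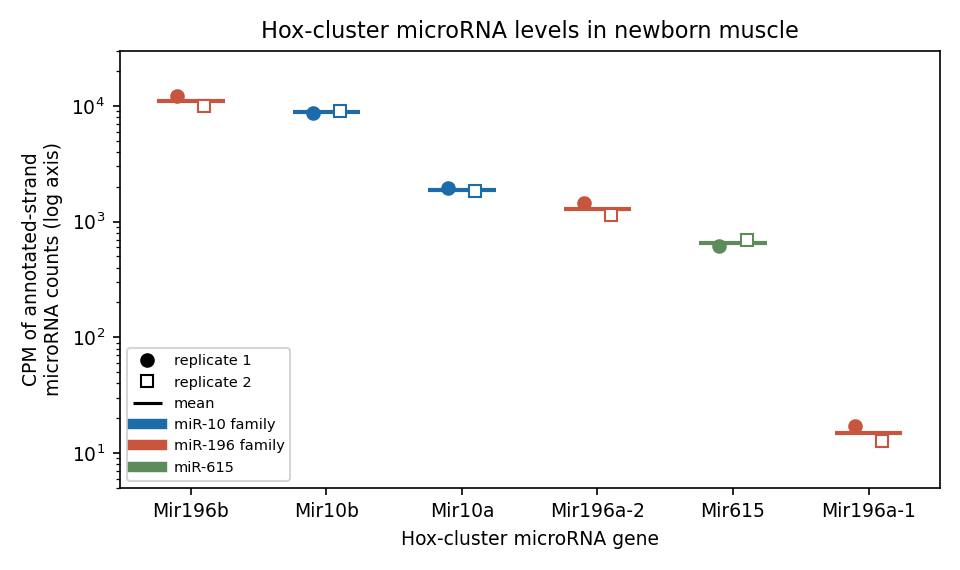
CPM of annotated-strand microRNA counts (log axis) of the 6 Hox-cluster microRNA genes, with filled circles for replicate 1, open squares for replicate 2 and a bar at their mean; colours mark families. Mir196b (11049 CPM) and Mir10b (8799 CPM) lie well above the others, and Mir196a-1 (15.0 CPM) lies far below.

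**Figure D2:**
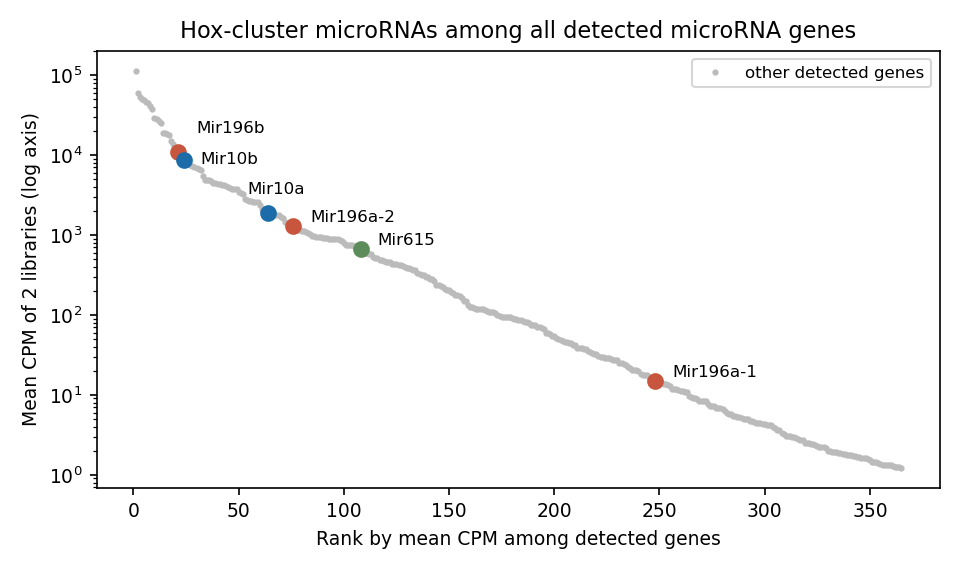
Mean CPM of the 2 libraries (log axis) against rank for the 365 genes that reached 10 counts in each library, with the Hox-cluster genes coloured by family. Mir196b and Mir10b stand at ranks 21 and 24, Mir10a, Mir196a-2 and Mir615 at 64, 76 and 108, and Mir196a-1 at 248.

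Genes next to them in mean level came from elsewhere in the genome. Likeness here is only adjacent rank over 2 libraries. Mir196b stood between Mir130a (11513 CPM ± 1585) and Mirlet7d (9364 ± 729), and Mir10b between Mir351 (8861 ± 1596) and Mir382 (7856 ± 781). The range of Mir196b overlapped that of Mir130a, with 12633 CPM in replicate 1 and 10392 CPM in replicate 2, but Mir130a was the higher in each library. Mir10a stood between Mir329 (2092 CPM ± 4.80) and Mir501 (1839 ± 143), and Mir196a-2 between Mir496a (1326 ± 289) and Mir324 (1215 ± 272). Mir615 stood between Mir423 (665 CPM ± 116) and Mir770 (619 ± 38.0), and Mir196a-1 between Mir103-2 (15.5 ± 10.1) and Mir8114 (14.4 ± 4.69). The order changed between the libraries for Mir10b with Mir351, Mir10a with Mir501 and Mir196a-2 with Mir496a. It also changed for Mir615 with Mir423 and for Mir196a-1 with both of its neighbours.

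Within the miR-10 family, Mir10b exceeded Mir10a 4.44-fold in replicate 1 and 4.88-fold in replicate 2, a mean of 4.66 ± 0.313 (SD, n = 2). Their hairpins share at most 15 bases in a row, and the arms differ at position 12, so exact reads that cover this base fit 1 of the pair. Within the miR-196 family, Mir196b exceeded the sum of both miR-196a genes 8.36-fold and 8.65-fold, a mean of 8.50 ± 0.203. Mir196a-2 in turn exceeded Mir196a-1 83.5-fold and 89.1-fold, a mean of 86.3 ± 3.97, in counts that leave out exact reads of their shared arm. The counted sums of the families were close to each other, with 1.24% ± 0.179 of microRNA counts for miR-196 and 1.07% ± 0.0190 for miR-10. The ratio of miR-196 to miR-10 was 1.29 in replicate 1 and 1.02 in replicate 2. Because the miR-196 counts leave out exact reads of miR-196a-5p, this ratio is a lower limit.

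The miR-196a values carry a limit that the other members do not. The hairpins of Mir196a-1 and Mir196a-2 are shown because their longest common stretch, in capitals, is the 22-base sequence of miR-196a-5p itself.

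Mir196a-1: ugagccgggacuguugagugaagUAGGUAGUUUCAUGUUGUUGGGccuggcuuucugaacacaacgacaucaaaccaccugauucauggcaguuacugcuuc
Mir196a-2: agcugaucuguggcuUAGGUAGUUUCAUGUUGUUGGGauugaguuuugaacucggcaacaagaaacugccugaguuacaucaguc

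A read of exactly this arm fits both genes. The authors' tables keep reads with several possible places in a row of their own, 4594061 in replicate 1 and 5655304 in replicate 2, or 28.01% and 26.9% of reads. The counts of Mir196a-1 and Mir196a-2 therefore come from reads that reach beyond the shared stretch, differ from it, or stem from another part of the hairpin. The bases that flank the stretch differ, with G before and C after it in Mir196a-1, and U before and A after it in Mir196a-2. The 3p arms differ as well, at 17 of 22 positions, and are shown with their seeds in capitals.

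miR-196a-1-3p: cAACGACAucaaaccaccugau
miR-196a-2-3p: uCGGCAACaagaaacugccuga

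From which of these parts the counts came was not tested, since the tables hold no read sequences. The miR-196a counts are a lower limit, and the ratio of Mir196b to them is an upper limit. For the miR-196a genes to equal Mir196b, 85170 of the reads set apart in replicate 1 (1.85% of them) and 95059 in replicate 2 (1.68%) would have to be miR-196a. The order of miR-196a and Mir196b in the tissue is thus not settled by these counts. The ratio of Mir196a-2 to Mir196a-1 has no limit in either direction, since reads of the shared arm could belong to either gene, and the order of this pair is not settled either. Mir10a, Mir10b, Mir196b and Mir615 shared no 20-base stretch with another microRNA gene outside their own position. On the opposite strand, all 6 genes had 0 counts in both libraries.

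By cluster, HoxA held 46.5% ± 3.61 of the Hox-cluster microRNA counts (SD, n = 2), all from Mir196b, and HoxD held 37.2% ± 3.52, all from Mir10b. HoxC held 8.21% ± 0.122 from Mir196a-2 and Mir615, and HoxB 8.05% ± 0.210 from Mir10a and Mir196a-1. Exact reads of miR-196a-5p, which could come from HoxB or HoxC, are in none of these counts. The shares of HoxA and HoxD are therefore upper limits, and the order of HoxB and HoxC is not settled. Inside the spans of the 39 protein-coding Hox genes the annotation (GENCODE M21, GRCm38) holds 7 microRNA genes. The seventh, Gm44463 on the opposite strand of HoxD, is not among the genes the authors counted, so it has no level here.

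The miR-196 genes sit past the middle of their clusters, on the high-numbered side of the Hox9 genes. Mir196b (chromosome 6, 52230081 to 52230165, minus strand) lies 3.976 kb from the Hoxa9 coding sequence and 2.343 kb from that of Hoxa10. It falls in an intron of 1 noncoding Hoxa9 transcript and in an exon of 2 others, outside any coding sequence. Mir196a-2 (chromosome 15, 102973350 to 102973434, plus strand) lies 8.218 kb from Hoxc9 and 2.277 kb from Hoxc10, in an intron of a noncoding Hoxc5 transcript. Mir196a-1 (chromosome 11, 96265164 to 96265265, plus strand) lies 6.276 kb from Hoxb9 and 68.937 kb from Hoxb13, in no annotated transcript of another gene.

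The miR-10 genes sit beside the Hox4 genes. Mir10a (chromosome 11, 96317165 to 96317274, plus strand) lies 1.495 kb from the Hoxb4 coding sequence and 12.03 kb from that of Hoxb5, in no annotated transcript of another gene. Mir10b (chromosome 2, 74726070 to 74726137, plus strand) lies 1.141 kb from Hoxd4 and 19.26 kb from Hoxd8, in introns of Hoxd4 and Hoxd3 transcripts. Mir615 (chromosome 15, 103014910 to 103015001, plus strand) lies in the intron of Hoxc5, 0.226 kb and 0.374 kb from its coding exons. All 6 genes lie on the strand of their Hox neighbours.

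Levels were set beside place along the clusters. Measured from the low-numbered end, Mir615 stood at 18.9% of the cluster's span with 659.7 CPM, Mir10a at 29.3% with 1891 CPM and Mir10b at 40.3% with 8799 CPM. Farther along, Mir196a-2 stood at 54.8% with 1287 CPM, Mir196a-1 at 59.2% with 15.0 CPM and Mir196b at 70.7% with 11049 CPM. This order holds for the share of the span, and by distance it ran Mir615 (21.9 kb), Mir10b (39.005 kb), Mir10a (51.0 kb), Mir196a-2 (63.4 kb), Mir196b (74.5 kb) and Mir196a-1 (103 kb). Because HoxC begins at Hoxc4, Mir615 inside Hoxc5 comes first on both scales although the miR-10 genes lie beside Hox4 genes. With all of these genes included, the counts rose or fell steadily on neither scale. Without the miR-196a genes they rose at each step by share of the span, from Mir615 through Mir10a and Mir10b to Mir196b. By distance they did not, since Mir10b came before Mir10a. By Hox number they did not either, since Mir615 inside Hoxc5 comes after the higher miR-10 genes beside Hox4 genes. With so few genes no trend was tested. Mir10b and Mir10a, both beside a Hox4 gene, differed by the ratio given above, while the levels of the miR-196a genes are too uncertain for such a comparison.

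**Figure D3:**
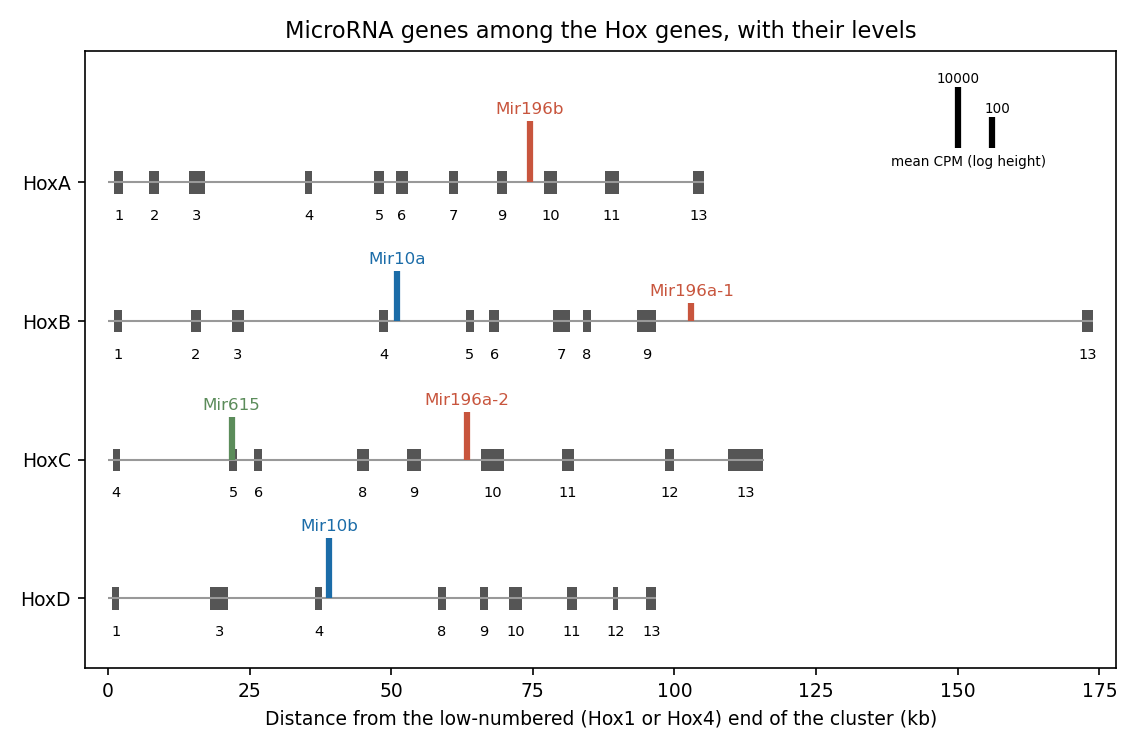
The 4 Hox clusters drawn from their low-numbered end (distance in kb), with grey boxes for Hox coding sequences numbered by group and coloured bars for microRNA genes, whose height is the logarithm of mean CPM. Mir196b (11049 CPM) stands between Hoxa9 and Hoxa10 and Mir10b (8799 CPM) beside Hoxd4, while Mir196a-1 in HoxB is the shortest bar (15.0 CPM).

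The libraries were next compared gene by gene, as the log2 ratio of replicate 1 over replicate 2 of CPM plus 1, with library sizes scaled by TMM (a trimmed mean of ratios). Each ratio sets 1 library against another and has no replicate check. None of the 6 genes was 2-fold apart, where 4.38% of the 365 genes that reached 10 counts in each library were. Their median absolute log2 ratio was 0.17, beside 0.28 for all 365 genes, and their median ratio was -0.06, beside 0.01. With library totals in place of TMM the median of the 6 genes turned to 0.18, beside 0.24 for all genes.

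All 3 miR-196 genes were on the side of replicate 1, with log2 ratios of 0.05 for Mir196b (95% counting interval 0.03 to 0.06), 0.09 for Mir196a-2 (0.06 to 0.13) and 0.18 for Mir196a-1 (-0.16 to 0.54). The interval of Mir196a-1 includes 0. Of all 365 genes 192 were on this side, and 62.5% had intervals that exclude 0, so neither the side nor the interval sets the miR-196 genes apart. Mir615 at -0.42 (-0.48 to -0.37) and Mir10b at -0.31 (-0.32 to -0.29) were on the side of replicate 2. Mir10a stood at -0.17 (-0.20 to -0.14), but at 0.08 when sizes were library totals, the same change of scale. Under library totals the other 5 genes stayed on their side of 0. The libraries also differed in marker lists, such as the erythroid genes with 583 and 286 CPM in replicates 1 and 2, and the part of such differences in these ratios was not tested.

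**Figure D4:**
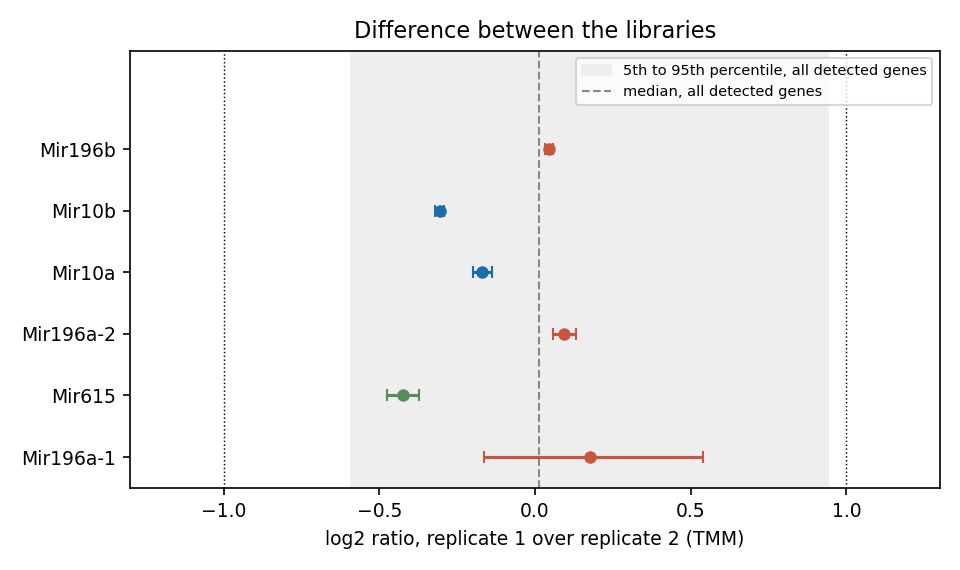
Log2 ratio of replicate 1 over replicate 2 after TMM scaling for the 6 genes, with 95% counting intervals; the grey band spans the 5th to 95th percentile of all detected genes (-0.59 to 0.94), the dashed line is their median and dotted lines mark 2-fold. All 6 genes lie inside the band, from -0.42 for Mir615 to 0.18 for Mir196a-1.

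Hox messengers were not measured here, but their sequences can be set beside the microRNAs. A match to a seed was sought on the transcript strand in the 500 bases after the stop codon of 33 Hox genes and of all 12997 protein-coding genes with a window of that length, using 1 transcript per gene. The miR-196 match ACTACCT occurred in 7 of 33 Hox windows (21.2%), against 1.92% of all windows, Hox included. The match with an A after it, ACTACCTA, which contains the shorter one, occurred in 4 of 33 (12.1%), against 0.315%. The Hox genes with the shorter match were Hoxa4, Hoxa5, Hoxa7, Hoxa9, Hoxb6, Hoxb7 and Hoxc8, and Hoxa7 held 3 copies. Of these, Hoxa5, Hoxa7, Hoxb6 and Hoxb7 held the longer match.

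The miR-10 match ACAGGGT occurred in 1 of 33 Hox windows (3.03%), that of Hoxa3, against 4.80% of all windows. This window also held the match with an A after it, ACAGGGTA, found in 0.592% of all windows. The side on which the Hox share fell thus depended on the length of the match, and it rests on 1 window. For miR-615-3p the match GGCTCGG was in 0 of 33, against 0.923%, and for miR-615-5p GGACCCC was in 4 of 33 (12.1%), namely Hoxa11, Hoxb13, Hoxc6 and Hoxc11, against 3.24%. With an A after it, the miR-615-3p match was in 0 of 33, against 0.154%. The longer miR-615-5p match was in 1 of 33 (3.03%), that of Hoxb13, against 1.25%. A match is a run of letters and not a shown target site, and a window without one says nothing of the rest of the transcript.

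**Figure D5:**
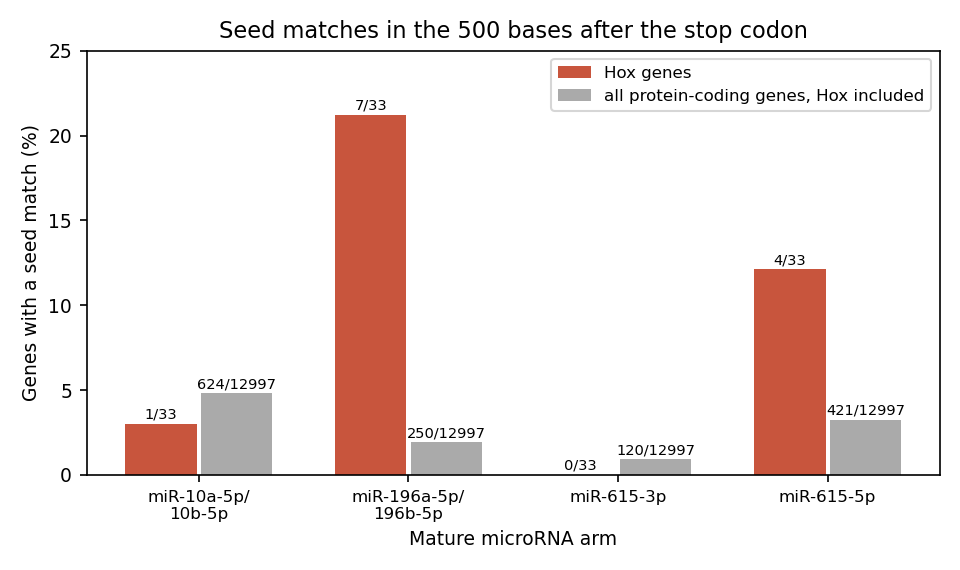
Share of genes (%) with a 7-base seed match in the 500 bases after the stop codon, with Hox genes at left and all protein-coding genes at right for each mature arm, and counts above the bars. The miR-196 match is in 7 of 33 Hox windows, against 250 of all 12997 windows.

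Hoxb8, which encodes a Hox factor of the trunk and is a known target that miR-196 cleaves, is not among these because its site departs from the seed match by a wobble pair. When miR-196a-5p was laid without gaps along the whole 3′ end of 20513 protein-coding genes, Hoxb8 ranked 1, by paired bases with wobbles counted and then by Watson-Crick pairs. It was 1 of 2 genes in which all 22 bases paired. The site is printed with Watson-Crick pairs in capitals.

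Hoxb8 site: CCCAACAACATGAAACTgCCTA

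It lies at chr11:96284888-96284909 (GRCm38, plus strand), in the 3′ untranslated region, from base 418 after the stop codon. Of its bases 21 pair by Watson-Crick rules with miR-196a-5p and 1 by a G-U wobble, opposite position 5 of the microRNA. With miR-196b-5p, 20 pair by Watson-Crick rules and 1 by wobble. The base opposite position 12, where the microRNAs differ, is then unpaired, and 15 genes paired as many bases, Hoxb8 among them. In the same search the best Hox gene ranked 827 for miR-10b-5p (Hoxa10), 1264 for miR-10a-5p (Hoxa9) and 1304 for miR-615-3p (Hoxb13).

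Close relatives outside the Hox clusters were counted beside the members. The miR-99/100 family resembles miR-10 but has another seed, ACCCGUA. Their alike stretches are shown by the relative with the longest, whose seed is in capitals.

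miR-100-5p: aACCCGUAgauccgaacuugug

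It shares 11 bases in a row with miR-10a-5p, positions 7 to 17 of that arm, and 5 with miR-10b-5p. The latter shares more with miR-99b-5p, 10 bases in a row at positions 7 to 16 of miR-10b-5p. The miR-10 genes took 1.06% and 1.08% of microRNA counts in replicates 1 and 2, and the 3 miR-99/100 genes took 3.60% and 3.32%, with Mir99a at 26445 CPM ± 1939, Mir99b at 4932 ± 128 and Mir100 at 3246 ± 153 (SD, n = 2). The seed of miR-196, AGGUAGU, occurs at positions 3 to 9 of let-7a-5p, shifted by 1 base from that arm's own seed. The miR-196 genes took 1.36% and 1.11% of counts, and the 10 let-7 family genes in the tables took 9.31% and 9.13%. In both cases the Hox-cluster family was the smaller in these counts of reads that fit 1 place.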

How the data were processed

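Small RNA from 2 samples of 1 group was sequenced. For each library the authors deposited raw counts, in whole numbers, for 1973 microRNA genes, with reads that fit several places set apart. Per the deposited readme texts the build was mm10 and the annotation GENCODE M4. Which aligner and counter they ran is not given in the sources used here. Column 3 was used, read as the annotated strand from the values. Rows that name no gene stayed out of library sizes: besides reads fitting several places, they held 16.04% and 13.4% unmapped reads and 1.60% and 1.43% in no gene (replicates 1 and 2). Symbols came from GENCODE M21 by gene ID without version (1894 matched, 6 of 6 members, 2 of them with another version), and sequences from RefSeq tables and M21 transcripts.

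CPM use library totals. Ratios between libraries use TMM factors of 1.09 and 0.918 (edgeR 4.0.16, R 4.3.3) over the 365 genes that reached 10 counts in each library, a pseudocount of 1 CPM and exact 95% binomial intervals (scipy 1.17.1, Python 3.11.15), and were tested on simulated data. The simulated counts carried set changes and counting error only, so other differences between libraries were not covered. With 1 group there was no test, and values are means with SD over 2 libraries. Alternatives were unstranded counts, library totals, DESeq2 1.42.0 size factors, count minimums of 1 and 50, pseudocounts of 0.1 and 10 CPM, other denominators and each replicate left out. Members, lists and tests were chosen with earlier results of these data known. Besides the members, the genes named were those 1 rank above and below each, the other microRNA genes of the clusters, the miR-99/100 genes, let-7 as a sum and the markers; the Hoxb8 site was singled out after the search.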

Additional observations from a re-analysis of the deposited data

How the results depend on the processing

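The Hox-cluster share depended on which counts entered it. It was 2.37% of annotated-strand microRNA counts, 2.10% with unstranded counts, 1.18% with all reads as the denominator and 2.68% without genes that share a 20-base stretch, which removes both miR-196a genes. The median log2 ratio between the libraries over the 6 genes, -0.06 as reported, was 0.18 under library totals, 0.022 with a count minimum of 1 and -0.039 with a minimum of 50, where TMM factors were computed over other genes. With DESeq2 size factors, unstranded counts and both other pseudocounts it stayed between -0.083 and -0.040. These bounds are the mean lower and mean upper counting bounds of the genes in the middle, not an interval of the median itself. The count of members 2-fold apart was 0 under each of the 5 alternatives tried for it. With 1 replicate left out, the share ran from 2.26% to 2.48%, the Mir10b to Mir10a ratio from 4.44 to 4.88 and the ratio of Mir196b to the miR-196a genes from 8.36 to 8.65. Ratios between libraries need both replicates, so none was left out there. No paired analysis was possible because the samples form 1 group. Depth limits Mir196a-1 most, at 137 and 138 counts.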
